A study of Mus musculus with 29 samples.

Results

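Liver gene expression after bile duct ligation (BDL) was compared with sham surgery over all days together: all 20 arrays of ligated livers were set against all 9 arrays of sham-operated livers, which together are the 29 arrays of the series. Members were taken from the treatment label alone. The mice were male C57BL/6N of 8 to 10 weeks, and RNA came from whole liver, as the labels and the series' design text give it; titles call the mice wt and the diet was standard. In the BDL groups the extrahepatic common bile duct was ligated, and livers were taken on day 1, day 3, day 7 or day 21, with 5 arrays each. Sham-operated mice, without ligation, are represented at day 1 by 3 arrays, at day 3 by 2 and at day 7 by 4. No sham group of day 21 was analysed here, so ligation and time after surgery cannot be told apart at that day, for which the day 7 sham arrays were used. No transgene or drug is named in the labels of any group.

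Bile formed by hepatocytes leaves the liver through the bile ducts, and a closed duct keeps bile acids in the liver. Hepatocytes take up bile acids from blood, make them from cholesterol and export them, and these steps are under the control of nuclear receptors. Cholestatic injury is known for a ductular reaction, an influx of macrophages and neutrophils, scar formation and loss of specialised hepatocyte functions.

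Values are log2 intensities after robust multi-array averaging (RMA), a step that brings arrays to a shared distribution; a difference of 1 is a 2-fold difference. Levels are compared within a gene only. Of 22180 genes, 14699 exceeded a log2 value of 5, near the array medians of 4.90 to 5.13, in at least 3 arrays and were tested. A mean under 5 was not told apart from background. In these bulk samples fewer cells of a type and less RNA per cell cannot be told apart. The 9 hepatocyte markers averaged 12.57 to 12.82 in BDL arrays and 12.57 to 12.87 in sham arrays. Of 9 pancreatic markers on the array, Cpb1, Cela3b, Prss2 and Amy2b were under 5 on every array. The 4 pancreatic markers that were tested averaged 5.5 to 6.0 in BDL arrays and 5.6 to 6.0 in sham arrays. Of these 4, 2 were lower in BDL, against 13.0% of all genes tested. At day 1, BDL replicates 2 and 3 and sham replicates 1 and 3 stood apart by a narrower distribution. Their log2 values had an SD of 2.03 to 2.04, and the remaining 25 arrays one of 2.09 to 2.18. The 4 arrays are 2 of the 5 BDL arrays and 2 of the 3 sham arrays of day 1. Without them only 1 sham array of that day is left.

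Ligated and sham livers differed over all days in a large share of the genes. In the limma fit, with each day counted equally and a Benjamini-Hochberg adjusted p under 0.05, 3500 genes (23.8%) were higher in BDL and 1914 (13.0%) were lower, of which 282 and 117 differed by at least 2-fold. The median log2 fold change of all genes was 0.02. This split rests on the scaling: 64.6% of calls were higher on the deposited scale, 53.5% after cyclic loess and 39.4% with arrays centred on their median.

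A stricter set separated the livers completely. In 152 genes (1.03%) the lowest of the 20 BDL arrays lay above the highest of the 9 sham arrays, and in 87 genes (0.592%) the highest BDL array lay below the lowest sham array. These 239 genes, 11 of them predicted models named Gm or Rik, were chosen by this separation, so their adjusted p-values, 0.000369 or less, follow from the choice. The median log2 fold change was 1.07 among the higher genes and -1.01 among the lower ones, and 86 and 44 reached 2-fold. Most gaps between the nearest arrays were narrow, with medians of 0.13 and 0.12 on the log2 scale, and 32 higher and 9 lower genes had a gap of at least 0.5. The higher genes had a median sham level of 7.12 and the lower genes one of 9.23. Without the 4 day 1 arrays that stood apart, 311 higher and 180 lower genes separated; fewer arrays can only add genes. The set does depend on the scaling: 193 of the 239 genes were among 273 that separated after cyclic loess, and 201 were among 260 that separated with arrays centred on their median.

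**Figure D1:**
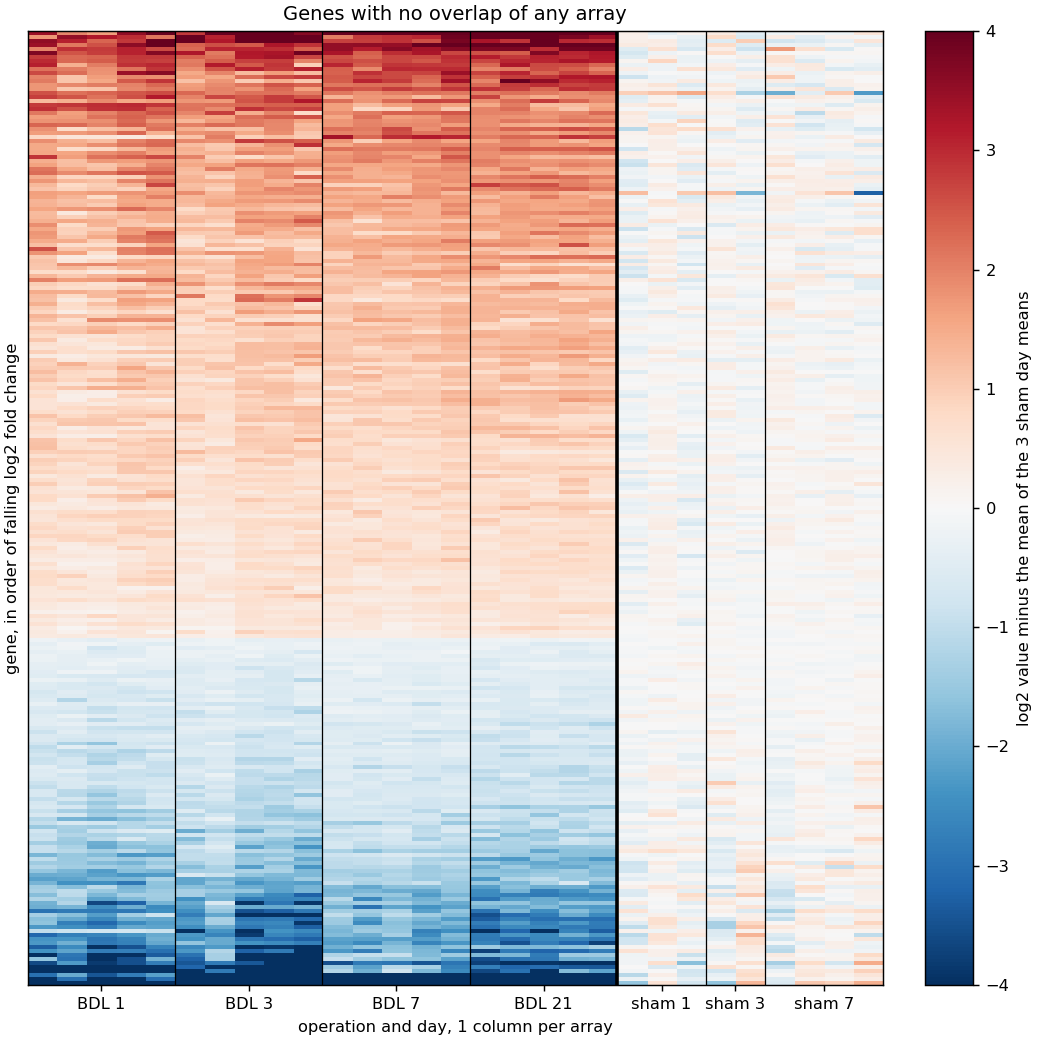
Each row is 1 of the 239 genes with no overlap of any array, in order of falling log2 fold change, and each column is 1 array; colour gives the log2 value minus the mean of the 3 sham day means and saturates at 4 in either direction. All 20 BDL columns stand left of the thick line and the 9 sham columns right of it, and the upper 152 rows are higher in BDL while the lower 87 rows are lower.

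The looser requirement, that BDL and sham arrays of the same day not overlap at any day, was met by 342 higher genes (2.33%) and 177 lower genes (1.20%). Past the threshold at each of the 4 days taken singly were 356 higher genes (2.42%) and 183 lower genes (1.24%). Of the 239 genes without overlap, 133 higher and 77 lower ones passed at each of the 4 days, and the other 29 missed the threshold at some day. Among these 29, Fabp1, Lcn2 and Mmp12 missed it at day 1, Atf3 and Csf3r at day 3 and Srebf2 at day 7. A single array kept a further 235 higher and 122 lower genes from separating. The sham array of day 7, replicate 1, accounted for the most of them: without it 194 higher and 113 lower genes separated.

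Promoter windows are shown for the 2 higher and 2 lower genes with the widest gaps between BDL and sham arrays, since these genes carry the separation most clearly. The windows are RefSeq sequence of GRCm38.p6, from 250 bases before to 50 after the first listed start of each gene, 5′ to 3′ on the gene's strand. Capitals mark matches, on either strand, to TGACNNNGC (antioxidant response element core), TGANTCA (AP-1), TTGCNNAA (C/EBP), the TATA box in the form TATAAA, the direct repeat 1 of nuclear receptors, the HNF1 palindrome or a p53 half-site, the last added after the windows had been read. Nid1 lies at chr13:13437352-13437651 on the plus strand, Cdkn1a at chr17:29090729-29091028 on the plus strand, Hsd3b5 at chr3:98645485-98645784 on the minus strand and Sult2a8 at chr7:14446538-14446837 on the minus strand.
Nid1: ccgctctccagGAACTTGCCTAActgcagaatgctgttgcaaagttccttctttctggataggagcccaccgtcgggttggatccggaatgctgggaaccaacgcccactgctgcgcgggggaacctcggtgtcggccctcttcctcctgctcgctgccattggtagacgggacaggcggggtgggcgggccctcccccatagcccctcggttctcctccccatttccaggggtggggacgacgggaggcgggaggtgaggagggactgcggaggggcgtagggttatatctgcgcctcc
Cdkn1a: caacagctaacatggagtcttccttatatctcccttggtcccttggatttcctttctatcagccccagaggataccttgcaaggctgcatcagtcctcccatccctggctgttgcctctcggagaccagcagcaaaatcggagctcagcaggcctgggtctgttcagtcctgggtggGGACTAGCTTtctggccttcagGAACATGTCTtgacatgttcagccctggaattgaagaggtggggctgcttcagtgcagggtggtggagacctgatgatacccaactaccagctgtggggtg
Hsd3b5: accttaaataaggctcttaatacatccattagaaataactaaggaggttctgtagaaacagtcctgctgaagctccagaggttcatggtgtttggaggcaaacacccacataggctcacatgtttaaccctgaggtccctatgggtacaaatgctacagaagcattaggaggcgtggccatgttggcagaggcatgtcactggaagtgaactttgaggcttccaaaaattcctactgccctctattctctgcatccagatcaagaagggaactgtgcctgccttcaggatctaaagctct
Sult2a8: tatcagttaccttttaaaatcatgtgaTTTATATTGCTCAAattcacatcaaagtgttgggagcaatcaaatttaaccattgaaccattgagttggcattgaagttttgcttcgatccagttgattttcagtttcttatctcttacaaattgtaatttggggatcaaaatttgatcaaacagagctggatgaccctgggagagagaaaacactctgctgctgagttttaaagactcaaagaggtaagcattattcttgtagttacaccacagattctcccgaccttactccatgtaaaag
The run of capitals in Nid1 is a C/EBP match that overlaps a p53 half-site. Cdkn1a held 2 p53 half-sites. In Sult2a8 a TATA box match on the other strand stands directly before a C/EBP match, and Hsd3b5 held none of these letters. Windows were found for 113 of 149 named higher genes and 55 of 79 named lower genes. A p53 half-site occurred in 12.4% of the higher and 3.64% of the lower windows, against 8.37% of all 27025 promoters. C/EBP matches occurred in 8.85% of the higher and 18.2% of the lower windows, against 10.8% of all, and TATA box matches in 10.6% and 21.8%, against 14.2%. For the antioxidant response element core the shares were 12.4% and 18.2%, against 12.5%, and for AP-1 9.73% and 7.27%, against 7.93%. No window of either set held the direct repeat 1 or the HNF1 letters, which 0.0444% and 0.0074% of all promoters hold. These are letter matches only and were not tested.

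The widest gap among the higher genes belonged to Nid1, which encodes nidogen, a linker protein of basement membranes. Its lowest, median and highest log2 values were 9.89, 10.48 and 11.001 in BDL livers, against 7.19, 7.64 and 8.28 in sham livers, a log2 fold change of 2.75 (SE 0.12, limma adjusted p = 9.81e-16). The nearest BDL and sham arrays were 1.61 apart. Cdkn1a, the p53 target p21 that blocks the cell cycle, spanned 8.28, 9.31 and 10.07 in BDL and 5.48, 6.23 and 6.85 in sham livers, with a fold change of 3.05 (SE 0.18) and a gap of 1.43. For Cd14, a co-receptor for bacterial lipopolysaccharide, the values were 7.71, 9.13 and 10.18 in BDL and 5.11, 5.37 and 6.32 in sham livers, a fold change of 3.46 (SE 0.19). Each of these genes had every ligated liver more than 1 log2 unit above every sham liver.

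**Figure D2:**
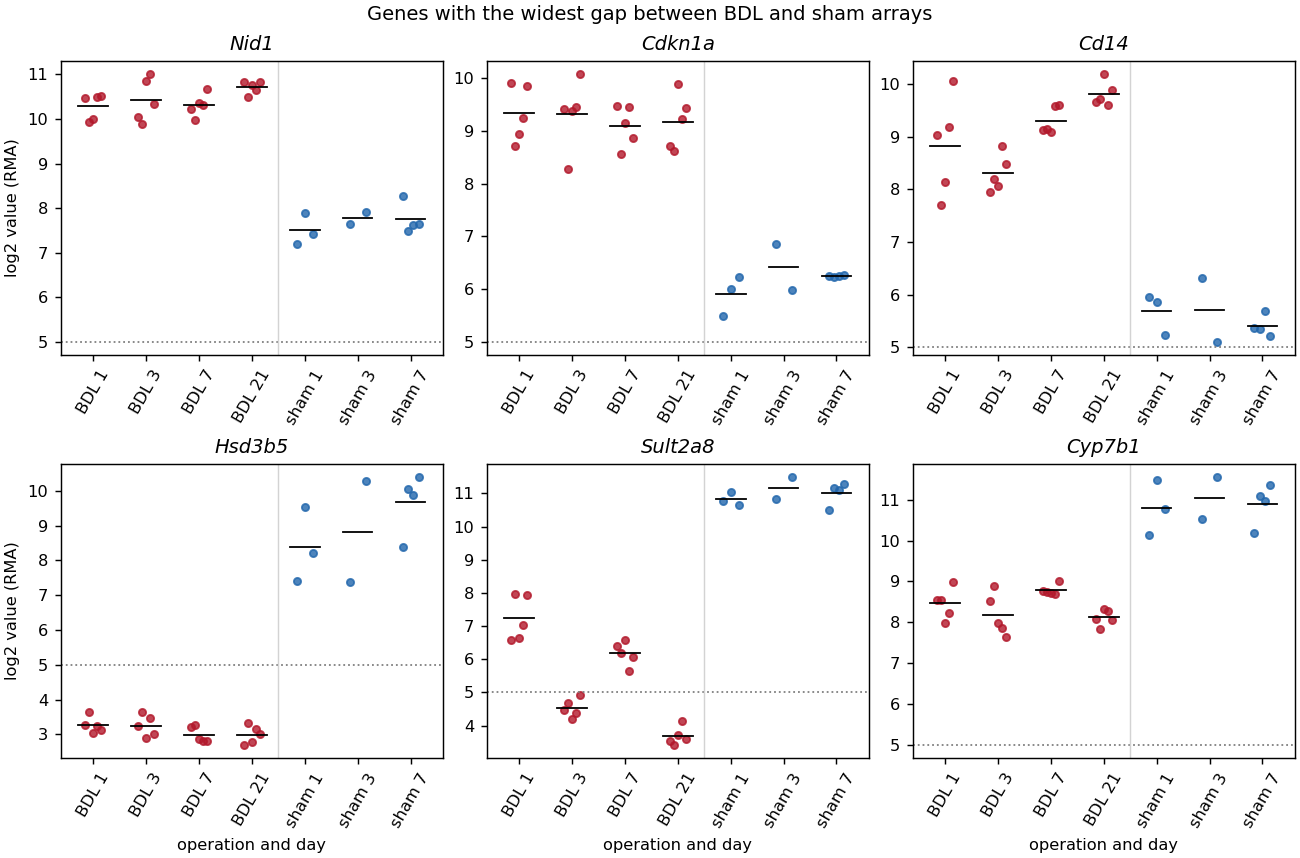
Log2 values of 6 genes in every array (points), by operation and day after surgery, with group means as bars and the filter level of 5 as a dotted line. Nid1, Cdkn1a and Cd14 are higher and Hsd3b5, Sult2a8 and Cyp7b1 lower in each of the 20 BDL arrays than in any of the 9 sham arrays.

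Several of the higher genes are known from macrophages. Marco, a scavenger receptor of Kupffer cells, ran 9.12, 9.67 and 10.41 in BDL livers (lowest, median, highest) and 6.68, 7.13 and 7.88 in sham livers, with a gap of 1.24. Chil3, a chitinase-like protein of alternatively activated macrophages, ran 6.48, 7.29 and 9.39 in BDL and 3.37, 3.83 and 5.13 in sham livers. Its sham mean lay under 5, so only a least step of 2.62 from the filter level to the BDL mean can be given. Ccl2, the chemokine that draws monocytes, ran 6.72, 7.99 and 9.14 in BDL and 5.24, 5.47 and 5.79 in sham livers and was higher by 2.42 (SE 0.16), and Itgam, an integrin of myeloid cells, was higher by 1.63 (SE 0.14). Of the 16 monocyte-derived macrophage markers, 14 were higher and none was lower, and 3 (Itgam, Chil3 and Mmp12, the last under 5 on every sham array) separated without overlap; their mean per array was 6.18 to 8.24 in BDL and 5.82 to 6.27 in sham livers. Of the 12 Kupffer cell markers, 11 were higher, but only Marco separated, and the list mean of 7.29 to 9.61 in BDL overlapped that of 7.55 to 8.29 in sham livers. The part of these marker shifts in the single genes was not tested. Among all genes tested, 23.8% were higher in BDL and 1.03% separated as higher genes.

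The largest fold changes among the higher genes mixed epithelial, metabolic and signalling genes. Sprr1a, a precursor of the cornified envelope of squamous epithelia, had 6.27, 9.37 and 11.06 in BDL and 4.13, 4.64 and 5.06 in sham livers, a step of at least 4.10 above the filter level. Sult1e1, the estrogen sulfotransferase, had 5.88, 7.56 and 9.77 in BDL and 3.49, 4.03 and 4.86 in sham livers, at least 2.82 above it. Both genes were near background in sham livers, so their sizes have no rank. Cib3, of a family of calcium- and integrin-binding proteins, was measured on both sides, with 8.89, 9.96 and 10.75 in BDL and 6.06, 6.95 and 8.61 in sham livers and a fold change of 3.13 (SE 0.20). Mtmr11, a myotubularin-related protein, and Mybl1, a transcription factor of the Myb family, had sham means under 5 and BDL means at least 2.39 and 1.85 above that level. Abcb1a, a P-glycoprotein drug exporter, was higher by 2.15 (SE 0.14).

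Most members of the cytoskeleton, p53, immediate early and NRF2 lists were higher in BDL, but not those of the unfolded protein response. For comparison, 23.8% of all genes tested were higher, 13.0% were lower and 1.03% separated as higher genes. Of the 28 cytoskeleton and annexin genes, 26 were higher and none lower, with a median log2 fold change of 1.20 against 0.02 for all genes, and Krt8, Krt18, Actg1, Tpm1 and Anxa2 separated. Krt18 and Krt8, the paired keratins of simple epithelia, were higher by 1.76 (SE 0.08) and 1.89 (SE 0.10), and Krt18 ran 11.02, 11.51 and 11.77 in BDL livers, against 9.40, 9.68 and 10.16 in sham livers. Anxa2, a membrane-binding annexin, was higher by 2.34 (SE 0.16). Of 14 p53 and growth arrest genes, 13 were higher; Cdkn1a, Btg2 and Gadd45b separated, with fold changes of 3.05, 1.25 and 1.24. Of 15 immediate early genes, 12 were higher; Klf6 (1.72), Ier3 (1.79), Atf3 (1.11) and Jund (0.77) separated. Of 19 NRF2 targets, 13 were higher and 2 lower; Hmox1, heme oxygenase, was higher by 1.55 (SE 0.11), Srxn1, sulfiredoxin, by 1.09 and Gsr, glutathione reductase, by 0.63. Of 16 genes of the unfolded protein and stress response, 2 were higher, 1 was lower and 13 did not pass, with a median of 0.11; Atf3, which this list shares, was its only gene without overlap.

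Most acute phase and chemokine genes were higher in BDL, and most interferon-stimulated genes did not pass. The shares of all genes tested were 23.8% higher and 13.0% lower. Of 25 acute phase genes, 21 were higher and none lower, and 4 (Lcn2, Steap4, Cd14 and Il1rn) separated, against 1.03% of all genes. Lcn2, a lipocalin that binds bacterial siderophores, ran 12.80, 13.12 and 13.59 in BDL and 8.70, 11.66 and 12.48 in sham livers; the sham array of day 7, replicate 4, was the lowest. The sham arrays of day 1 were at 11.95, 12.13 and 12.48, those of day 3 at 11.66 and 9.71 and those of day 7 at 9.03, 10.56, 12.02 and 8.70. Of 23 chemokine, cytokine and adhesion genes, 19 were higher; besides Ccl2, Icam1 (1.40) and Ccl3 separated, and Ccl3 had a sham mean under 5. Of 12 neutrophil markers, 8 were higher and 1 was lower, and Csf3r, the receptor of granulocyte colony-stimulating factor, separated at 0.71. Of 13 interferon-stimulated genes, 2 were higher, none was lower and 11 did not pass, with a median of 0.10, and none separated. Neutrophil markers Ly6g and Camp were under 5 on every array.

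Most members of the duct, scar and growth lists were higher in BDL, against 23.8% of all genes tested. Of 13 cholangiocyte markers, 12 were higher, and only Sox9, a transcription factor of duct cells and progenitors, separated, at 8.10, 8.69 and 9.84 in BDL and 6.85, 7.36 and 8.04 in sham livers. Of 20 stellate cell and matrix markers 16 were higher and of 23 cell cycle genes 18 were higher, and no gene of either list separated, against 1.03% of all genes, a share that cannot be told apart from 0 in lists of this size. The basement membrane list had 13 of 19 genes higher, and Nid1 was its only higher gene without overlap. Lama3, a laminin chain, went the other way, lower by 0.71 (log2 fold change -0.71, SE 0.06) at BDL values of 4.60, 5.11 and 5.46 and sham values of 5.58, 5.78 and 6.07, close to the filter level. Of 19 cholesterol synthesis and uptake genes, 14 were higher, and Srebf2, the transcription factor that drives them, separated at 0.55 (SE 0.07).

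**Figure D3:**
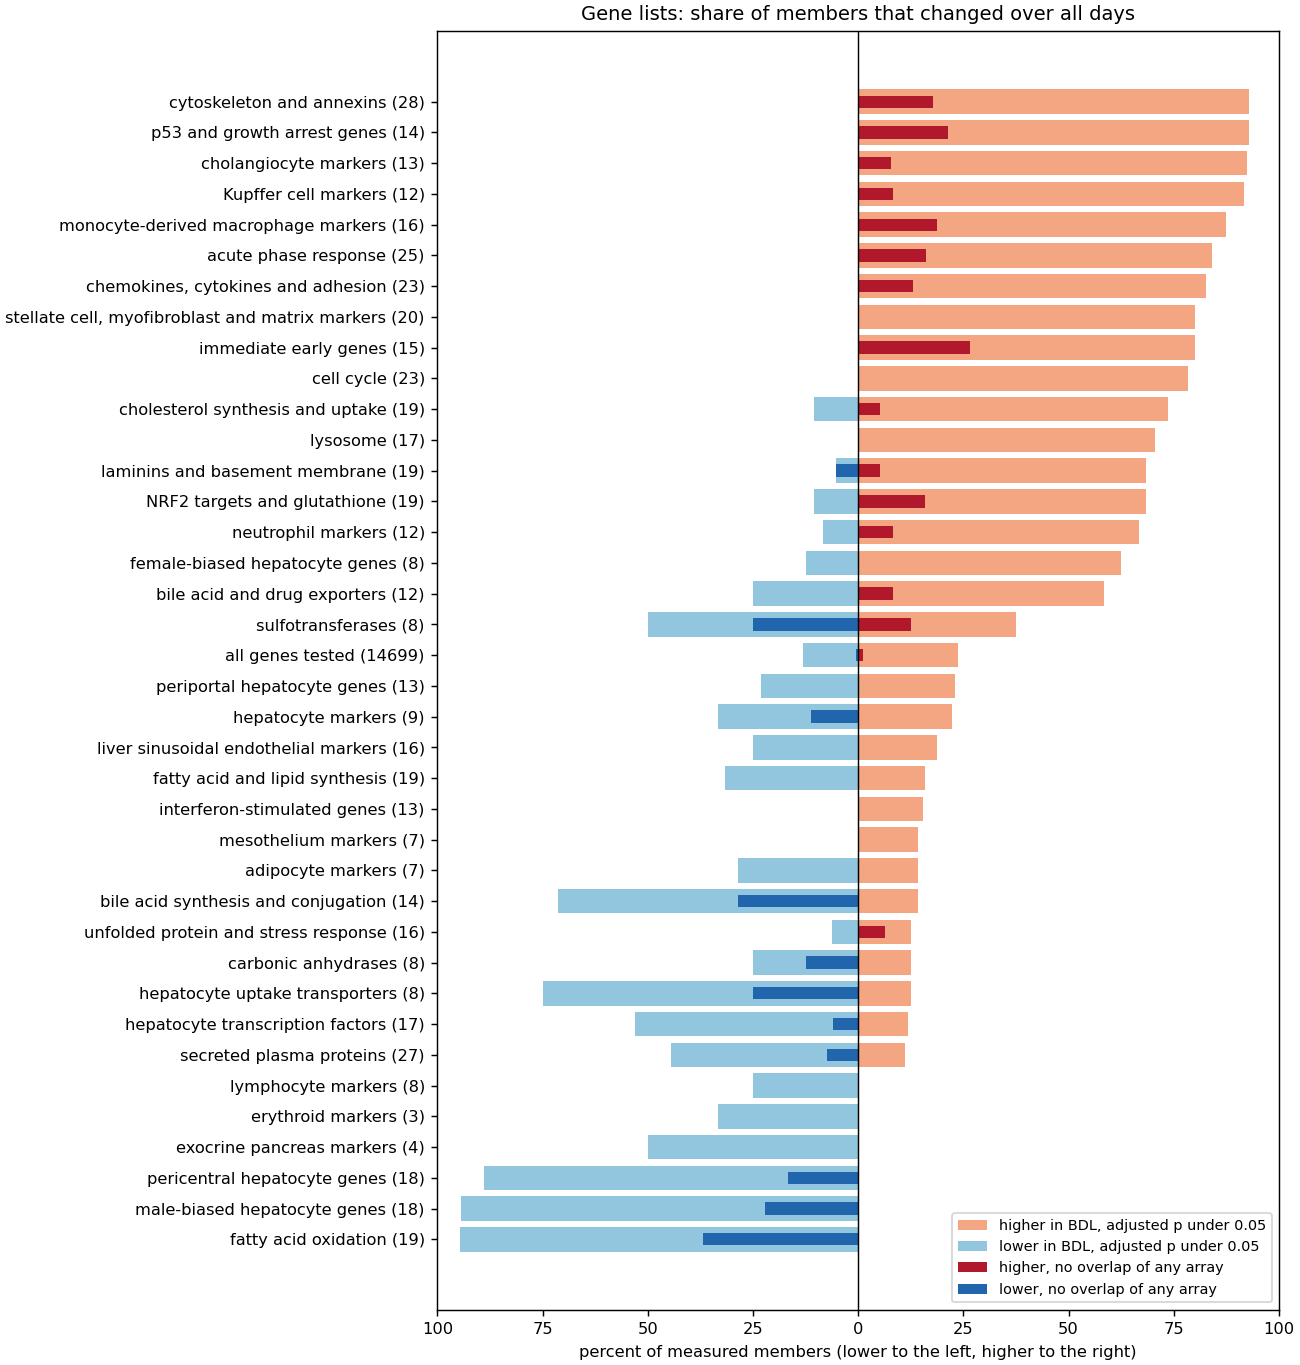
For each gene list (number of measured members in brackets) the wide bars give the percent of members past the threshold over all days, lower in BDL to the left and higher to the right, and the narrow dark bars give the percent without overlap of any array. The fatty acid oxidation list has 18 of 19 members lower and 7 separated, and the stellate cell and matrix list has 16 of 20 members higher and none separated.

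Among the lower genes the widest gaps belonged to male-biased hepatocyte genes and to enzymes of steroid and bile acid metabolism. Hsd3b5, a steroid dehydrogenase expressed in male mouse liver, was at 2.71, 3.14 and 3.65 in BDL livers, against 7.37, 9.54 and 10.38 in sham livers. Every BDL array lay under the filter level, so the loss is given as at least 3.96 on the log2 scale (limma adjusted p = 3.14e-16). Sult2a8, a sulfotransferase of mouse liver, was at 3.42, 5.27 and 7.97 in BDL and 10.49, 11.05 and 11.48 in sham livers, a fold change of -5.60 (SE 0.15, limma adjusted p = 9.46e-21), and its nearest arrays were 2.52 apart. It was below 5 on average at days 3 and 21, at 4.53 ± 0.27 and 3.68 ± 0.28, against 7.23 ± 0.68 at day 1 and 6.18 ± 0.36 at day 7 (SD, n = 5 each). Slco1a1, an organic anion uptake transporter, was at 3.45, 5.15 and 8.53 in BDL and 9.43, 10.74 and 11.32 in sham livers, a fold change of -4.98 (SE 0.21). The day means of both genes that lay under 5 make these sizes depend on the background. Of 18 male-biased genes, 17 were lower and none higher, with a median of -1.87, against 13.0% of all genes lower. Hsd3b5, Cyp7b1, Slco1a1 and Nudt7 separated, against 0.592% of all genes.

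Bile acid synthesis genes were mostly lower, but the rate-limiting enzyme did not separate. Among all genes tested, 13.0% were lower and 0.592% separated as lower genes. Cyp7b1, of the acidic pathway, had 7.64, 8.43 and 9.02 in BDL and 10.13, 10.96 and 11.55 in sham livers, a fold change of -2.52 (SE 0.16) and a gap of 1.11. Cyp8b1, which makes cholic acid, had 4.34, 7.09 and 9.36 in BDL and 9.65, 10.48 and 11.09 in sham livers (-3.80, SE 0.24). The peroxisomal enzymes Hsd17b4 and Scp2 also separated, at -0.53 and -0.51. Of the 14 genes of the list 10 were lower and 2 higher. Cyp7a1, the rate-limiting enzyme, was lower over all days (-2.07, SE 0.49, limma adjusted p = 0.00119), yet 12 of 20 BDL arrays overlapped the sham arrays, including all of days 7 and 21. At day 1 it averaged 4.29 ± 0.96 in BDL livers (SD, n = 5), under the filter level, against 9.94 ± 1.06 in sham livers (SD, n = 3), so the size at that day and over all days depends on the background. BDL minus sham came to -3.43 for day 3, 0.87 for day 7 and -0.14 for day 21, and the difference between days was past the threshold (limma F adjusted p = 0.00539). With days ignored, Cyp7a1 no longer passed (fold change -2.02, limma adjusted p = 0.131).

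Transport genes split. As background, 23.8% of all genes tested were higher and 13.0% lower, and 1.03% separated as higher and 0.592% as lower genes. Of 8 uptake transporters 6 were lower and 1 higher, and Slco1a1 and Slc27a2, a fatty acid transporter that also activates bile acids, separated, Slc27a2 at -0.84 (SE 0.07). Slc10a1, the sodium-dependent bile acid uptake carrier NTCP, was lower by 0.87, with 7 of 20 BDL arrays inside the sham range. Of 12 exporters 7 were higher and 3 lower. Abcb11, the bile salt export pump, was higher by 0.36 (SE 0.13, limma adjusted p = 0.0319), with 15 BDL arrays inside the sham range, and this call was lost without sham day 3 replicate 1 (0.20, limma adjusted p = 0.292), without sham day 1 replicate 1 (0.31, limma adjusted p = 0.0822) and without sham day 1 replicate 3 (0.32, limma adjusted p = 0.078). Abcc4, a basolateral exporter, was higher by 0.51 (SE 0.09), and its arrays of days 7 and 21 all lay above the sham range. Of 17 hepatocyte transcription factors 9 were lower and 2 higher. Ppara, the nuclear receptor of fatty acid oxidation, was the only one without overlap. Nr1h4, the bile acid receptor FXR, was lower by 0.68 with 2 BDL arrays, both of day 7, inside the sham range. Nr0b2, its target SHP, did not pass (log2 fold change 0.51, SE 0.21, limma adjusted p = 0.0625), and it did pass when sham day 7 replicate 4 (0.68), sham day 3 replicate 2 (0.66), sham day 1 replicate 2 (0.61) or BDL day 7 replicate 3 (0.56) was left out.

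Fatty acid oxidation held the largest number of separated genes of the lists. Of 19 genes 18 were lower and none higher, with a median of -0.53, and Cpt2, Acadvl, Acads, Acaa2, Hsd17b4, Eci1 and Fabp1 separated. Fabp1, the liver fatty acid-binding protein, had 7.81, 10.00 and 11.67 in BDL and 11.84, 12.54 and 12.68 in sham livers. Cpt2, of the mitochondrial carnitine shuttle, fell by 0.65 (SE 0.07), at 8.78, 9.26 and 9.46 in BDL and 9.59, 9.84 and 10.12 in sham livers, yet no array overlapped. Of 18 pericentral genes 16 were lower and none higher, and Cyp2e1 (-0.71), Cyp2c37 (-2.09) and Cyp2c54 (-2.55) separated. Of 13 periportal genes, 3 were higher and 3 lower. Such a short list cannot be told apart from the 23.8% higher and 13.0% lower of all genes. Of all genes, 0.592% separated as lower genes. The carboxylesterases Ces1f (-2.81) and Ces3b (-2.53), the methyltransferase Inmt (-2.71), and Car3, a carbonic anhydrase (-4.12, SE 0.40), were among the largest falls of named genes, as was Mup-ps12, a major urinary protein pseudogene under 5 in BDL livers. Of the predicted models, C730036E19Rik (-2.67) and Gm2788 (-2.41) fell by a similar amount. Near-identical copies make the values of the Cyp2c, Ces, Sult and Mup families uncertain. Of 27 plasma protein genes 12 were lower and 3 higher. Albumin (Alb), near the top of the scale, where values may be compressed, did not pass (0.06, SE 0.04).

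The steadiness of the separated genes over the BDL days differed from gene to gene. The range of the 4 BDL day means, highest minus lowest, had a median of 0.43 among the 152 higher genes and 0.48 among the 87 lower ones, against 0.33 over all genes tested. It was at most 0.5 in 92 higher and 46 lower genes, among them 35 and 8 that differed by at least 2-fold, and at least 1 in 20 and 15 genes. The limma F test across the BDL days passed for 73 higher genes (48.0%) and 42 lower genes (48.3%), against 5000 (34.0%) of all genes tested. At a given size of difference, the choice of genes without overlap favours a small spread among BDL arrays. Of all genes called over all days, the F test passed for 56.1% of the higher and 35.4% of the lower ones.

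**Figure D4:**
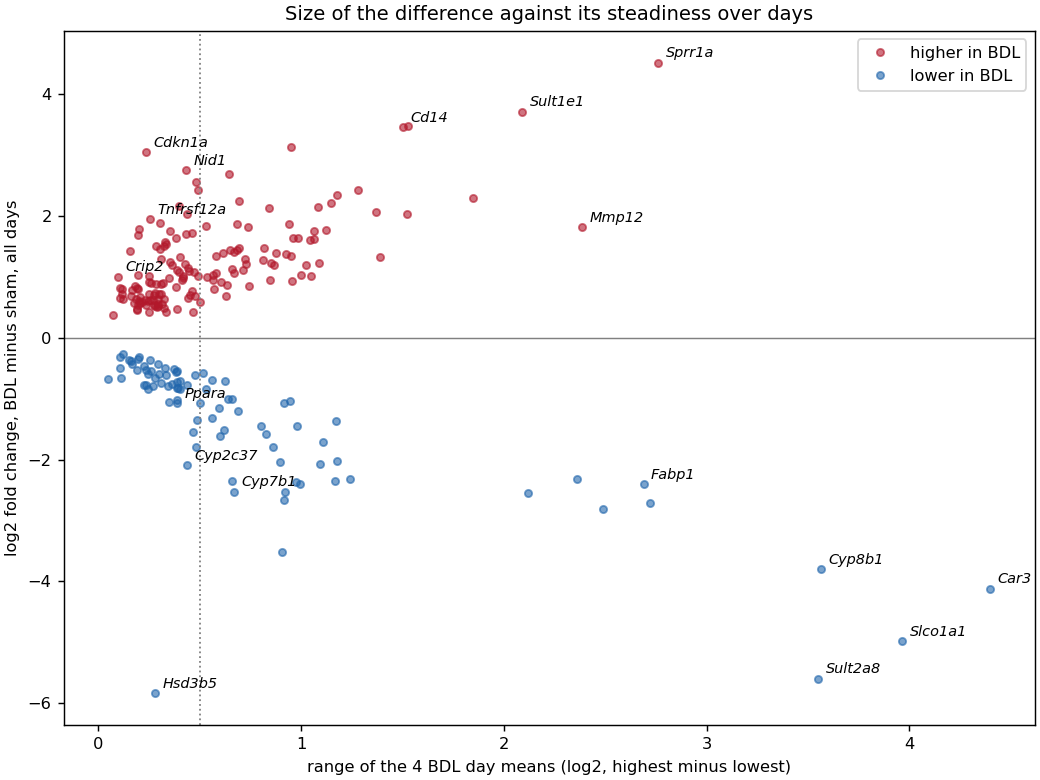
Each point is 1 of the 239 genes without overlap; the horizontal axis gives the range of the 4 BDL day means and the vertical axis the log2 fold change of BDL minus sham over all days, with a dotted line at a range of 0.5. Cdkn1a combines a fold change of 3.05 with a range of 0.23, while Car3 has a range of 4.40; the range of Hsd3b5 lies under the filter level.

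Genes without overlap and of at least 2-fold were ranked by the smallest range, with predicted models named Gm or Rik passed over. The steadiest higher genes were Crip2, Lacc1, Cp, Ier3, Cdkn1a, F11r, Tnfrsf12a and Tm4sf4. The predicted Gm12718, with a range of 0.16 and a fold change of 1.43, would stand second in that ranking. Ccnd1, with 1 BDL array inside the sham range and so not ranked, had a range of 0.12 and a fold change of 1.55. Crip2, a LIM domain protein, averaged 10.05 ± 0.28, 9.99 ± 0.21, 10.03 ± 0.22 and 9.96 ± 0.14 at BDL days 1, 3, 7 and 21 (SD, n = 5 each), a range of 0.10. Its sham means were 8.85 ± 0.30 at day 1 (n = 3), 9.07 ± 0.20 at day 3 (n = 2) and 9.10 ± 0.18 at day 7 (n = 4). BDL at day 21 minus day 1 was -0.10 with a 95% interval of -0.38 to 0.18. The gene was chosen by these same means, so the interval does not bound the change or show that there was none. Cdkn1a had day means of 9.33 ± 0.54, 9.32 ± 0.65, 9.10 ± 0.39 and 9.18 ± 0.52, all about 3 log2 units above sham, with an interval of -0.73 to 0.42 for day 21 minus day 1. Lacc1, a macrophage enzyme of purine metabolism, was at 8.32 ± 0.41, 8.13 ± 0.29, 8.26 ± 0.19 and 8.17 ± 0.27, and its fold change over all days was 1.69 (SE 0.11).

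The other steady higher genes serve copper transport, cell contacts and injury signalling. Cp, ceruloplasmin, was higher by 1.03 (SE 0.08) with a range of 0.20, and Tm4sf4, a membrane protein of the transmembrane 4 L6 family, by 1.51 (SE 0.09) with a range of 0.28. Tnfrsf12a, the receptor Fn14 of the cytokine TWEAK, ran 8.24, 8.56 and 9.26 in BDL and 6.28, 6.66 and 7.25 in sham livers, with nearest arrays 0.99 apart. F11r, the tight junction protein JAM-A, was higher by 1.01 (SE 0.08) and Ier3 by 1.79 (SE 0.15). The 8 genes were chosen for the small spread of their BDL day means, so no test across those means is given. The 95% intervals for day 21 minus day 1, which make no allowance for that choice, still reach 0.57 for Tm4sf4 and -0.73 for Cdkn1a.

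Among the lower genes the same ranking gave Hsd3b5, Sned1, Ppara, Cyp2c37, Lifr, AW549542, Fn3k and Prodh2, again with predicted models passed over. Gm4450 (range 0.35) would stand before Sned1, and 9030622O22Rik (range 0.49) before Fn3k. The steadiness of Hsd3b5, AW549542 and Gm4450, with BDL means under 5, cannot be read. Ppara averaged 7.81 ± 0.13, 8.01 ± 0.11, 8.00 ± 0.13 and 7.62 ± 0.37 at days 1, 3, 7 and 21 in BDL livers (SD, n = 5 each), a fold change of -1.08 (SE 0.09) over all days. Cyp2c37, a pericentral cytochrome P450, averaged 8.44 ± 0.32, 8.73 ± 0.33, 8.29 ± 0.40 and 8.57 ± 0.22, a fold change of -2.09 (SE 0.13). Lifr, the receptor of leukaemia inhibitory factor, was lower by 1.54 (range 0.47) and Prodh2, hydroxyproline dehydrogenase, by 1.32 (range 0.56). Sned1, an extracellular matrix protein, and Fn3k, fructosamine 3-kinase, were lower by 1.02 and 1.07 at BDL medians of 5.57 and 5.02, close to the filter level. Fn3k averaged 4.78 and 4.96 at BDL days 1 and 3, under that level, so its steadiness cannot be read either. Its difference of BDL day 21 minus day 1 was 0.37 (95% interval 0.13 to 0.61).

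**Figure D5:**
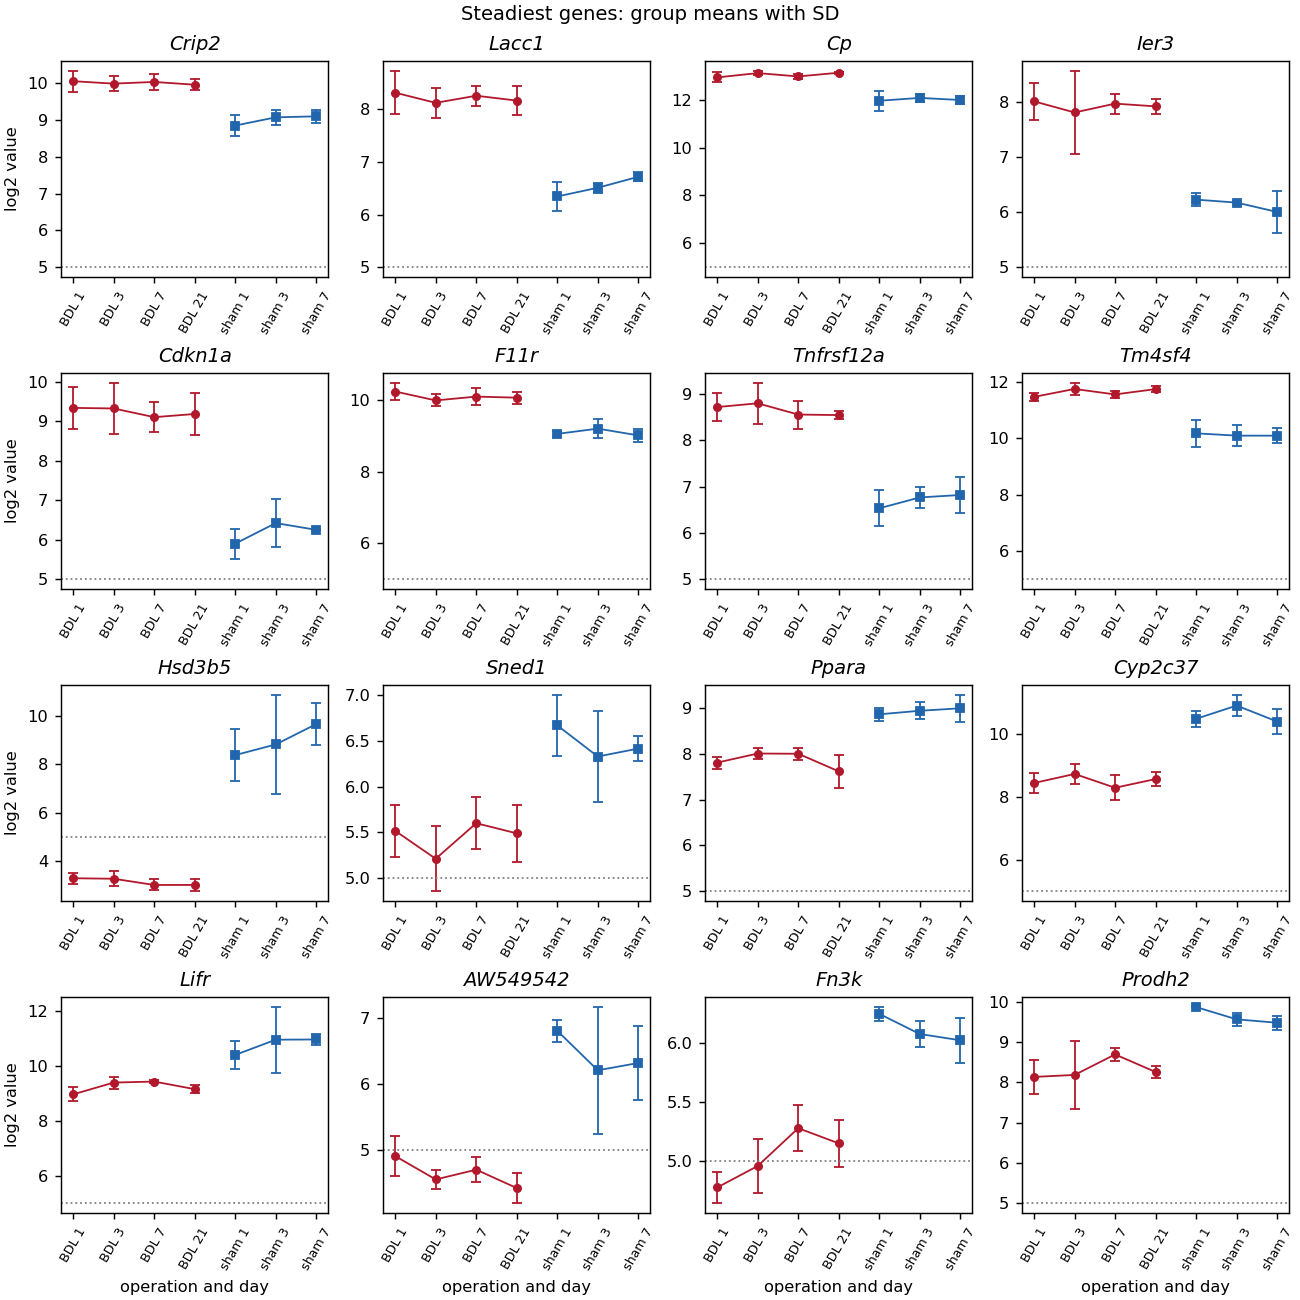
Group means with SD of the 8 higher and 8 lower genes with the smallest range of BDL day means. They were taken from genes of at least 2-fold without overlap, with predicted models named Gm or Rik left out. BDL had n = 5 per day and sham n = 3, 2 and 4. The dotted line is the filter level of 5 and the vertical scales differ. The 4 BDL means of each gene lie on the same side of its 3 sham means, and those of Hsd3b5 and AW549542 lie under the filter level.

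Other genes separated at every array while their level moved with the day. Sprr1a averaged 7.53 ± 1.07 at day 1 and 10.29 ± 0.68 at day 21 of BDL, a difference of 2.76 (95% interval 1.96 to 3.56). Mmp12, a macrophage elastase, ran 4.96, 6.66 and 7.94 in BDL and 4.33, 4.70 and 4.93 in sham livers; its lowest BDL array and all sham arrays lay under the filter level, so the gap between its nearest arrays was not measured above background. Car3 averaged 6.58 ± 0.65, 6.30 ± 1.99, 10.70 ± 0.67 and 9.37 ± 1.11 over BDL days 1, 3, 7 and 21, and Cyp8b1 5.16 ± 0.36, 5.47 ± 1.15, 8.73 ± 0.65 and 7.33 ± 0.27. Car3 was lowest at day 3 and Cyp8b1 at day 1, and both were highest at day 7. Slco1a1 averaged 7.89 ± 0.58 at day 1 and 3.92 ± 0.33 at day 21 of BDL, the second under the filter level. Fabp1 was also lower at day 21 than at day 1 of BDL, by a difference of -2.69 (95% interval -3.42 to -1.96). The BDL mean was highest at day 7 in 62 of the 87 lower genes, and in 47 after cyclic loess and 39 with centred arrays. Among the 152 higher genes the BDL mean was highest at day 21 in 66 and at day 1 in 43. After cyclic loess it was highest at day 21 in 51 and at day 1 in 61, so that order flips with the scaling. The day of the highest BDL mean was not counted over all genes tested. These counts therefore cannot be read as particular to the separated genes.

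Whether the ligation effect itself differed between days can be tested for days 1, 3 and 7, which have sham arrays. The limma F test called 400 genes (2.72%), of which 4 were higher and 7 lower genes without overlap. The effect at day 7 minus that at day 1 passed for 637 genes (4.33%), with 9 higher and 6 lower genes without overlap. The F test passed, among others, for Cyp8b1 (limma adjusted p = 0.000972), Slco1a1 (0.000731), Sult2a8 (0.000972) and Mmp12 (0.000731); Slco1a1 and Sult2a8 in BDL livers of day 3 and Mmp12 in sham livers averaged under the filter level. The sham days differed from each other in 260 genes (1.77%), 2 of them higher and 1 lower among the genes without overlap. This sham count depends most on the arrays of day 1: it was 9 without replicate 1, 1 without replicate 3 and 2301 without replicate 2. Replicates 1 and 3 are among the 4 arrays that stood apart, and with a term for that array set the count was 0.

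Large fold changes alone did not give separation. Gstm3, a glutathione S-transferase, was higher by 3.08 (SE 0.28), but its BDL day 3 replicate 5 lay inside the sham range. Gpnmb and Mfge8, genes of phagocytes, each had 2 BDL arrays of day 1 inside that range, and fold changes at day 1 of 0.73 and 0.75, against 3.46 and 3.42 at day 21. Among lower genes, Elovl3, a fatty acid elongase, and Cyp4a12a, a male-biased fatty acid hydroxylase, overlapped at day 1 alone, with fold changes of -1.23 and -0.60 at day 1 and -5.90 and -5.04 at day 21. Gpnmb in sham livers and Cyp4a12a in BDL livers of day 21 averaged under 5, so these sizes have no rank. Dio1, the thyroid hormone deiodinase, overlapped by 1 array of day 21. Col1a1, type I collagen, was higher by 2.08 (SE 0.31), with 19 BDL arrays in the sham range. That range reached 10.43 at day 7, where sham arrays averaged 7.53 ± 2.01 (SD, n = 4), against a sham median of 6.39. The BDL means of Col1a1 were 6.71, 8.55, 9.60 and 10.25 at days 1, 3, 7 and 21. The acute phase gene Saa3 had 16 BDL arrays in its sham range. Its sham means were 9.31, 6.98 and 6.49 at days 1, 3 and 7. The bound between the sets is thin. Among named genes of at least 2-fold, just inside it were Ifi27l2b, Pgd and Mmp12 among the higher genes, with gaps of 0.0083, 0.0305 and 0.0364, and Mcm10, Shmt1 and Car3 among the lower ones, with gaps of 0.0177, 0.0289 and 0.0302. Just outside were, by the same limits, Ccnd1, Cd33 and Gstm2, which overlapped by 0.0029, 0.0053 and 0.0173, and BC024386, Dio1 and Ces1e, which overlapped by 0.0056, 0.0225 and 0.0363.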

How the data were processed

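Whole liver RNA of 29 mice, 1 array each as the titles' animal numbers read, was grouped by the treatment and time labels. The values were deposited on a log2 scale; the submitters' processing notes name RMA and oligo 1.52.0. The sources used here give neither the authors' genome build nor which arrays were normalized together. Gene names come from platform annotation for Mouse Gene 2.0 ST, which the row identifiers match, although another Affymetrix mouse design is named in the labels' protocols.

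Of 41345 rows, 23521 had 1 gene symbol, 1814 had several and were not used, and 16010 rows were left unnamed. A RefSeq table of GRCm38.p6 gave current symbols by gene ID for 23328 rows. The row of highest mean stood for a gene.

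Means of 7 groups were fitted with limma 3.58.1 under R 4.3.3 (lmFit, eBayes). The main contrast was the mean of the 4 BDL day means minus the mean of the 3 sham day means, two-sided, with Benjamini-Hochberg adjustment over 14699 genes. The p-values rest on the spread between animals, and the number of arrays limits the precision. The median SE was 0.085 over all days and 0.13 for BDL day 21 minus day 1. Overlap was read from the array values, with no test. Named genes were the largest fold changes, the widest gaps and the steadiest among genes without overlap, up to 3 such members per list, the largest fold changes with overlap, and genes of cholestasis named whatever their result; the rankings leave out predicted models (symbols with Gm, Rik or LOC), and the 5 models given beside these rankings were chosen after their values were seen. The members, the 37 lists (561 of 618 genes on the array) and the rules were chosen with earlier results of these data known. Lists were described by counts and medians, with no set test. A replicate number only names an array, in accession order. The procedure was tested on simulated data. Alternatives were other filters, scalings, models, sets of days and arrays left out.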

Additional observations from a re-analysis of the deposited data

Results flagged for a closer look

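Of 485 pairs of a named gene and a group of 4 or 5 arrays, 27 held an array far from the others of its group, about the 1 in 20 that chance flags. At BDL day 1 these were replicate 4 for F11r (10.67, against 10.11 to 10.18 in the others) and Krt8 (11.62, against 11.12 to 11.23) and replicate 5 for Csf3r (7.33, against 6.66 to 6.75). At BDL day 3, replicate 2 stood out for Atf3 (7.79), Dio1 (7.21) and Mmp12 (6.66), replicate 5 for Gstm3 (8.86, against 11.14 to 12.01) and Lifr (9.01), and replicate 1 for Srxn1 (8.05). At BDL day 7, replicate 5 stood out for C8b (11.62), Chil3 (7.94), Cyp7b1 (9.02) and Sned1 (5.10), replicate 1 for Elovl3 (9.03, against 7.00 to 7.24) and Ier3 (7.65), replicate 2 for Crip2 (9.66) and replicate 4 for Srxn1 (8.58). At BDL day 21, replicate 3 stood out for Chil3 (8.35), Cib3 (9.85), Inmt (7.76) and Sned1 (4.94), replicate 4 for Krt19 (6.79) and replicate 5 for Nr1h4 (8.80). Among sham arrays of day 7, replicate 1 was far from the others for Acta2 (9.16, against 7.31 to 7.53), Crip2 (9.36) and Slc10a1 (11.63), and replicate 4 for Cyp7a1 (9.81, against 10.84 to 10.87).

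The ligation effect at day 7 differed from that at day 1 in 16 named genes (limma adjusted p under 0.05). The day 7 effect minus the day 1 effect was positive for Cyp7a1 (6.52), Car3 (3.46), Cyp8b1 (3.44), Sprr1a (2.39), Mmp12 (2.33), Gpnmb (2.23), Mki67 (2.01), Mfge8 (1.71), Fn3k (0.73) and Nr1h4 (0.63). It was negative for Serpina4-ps1 (-4.08), Mup21 (-3.40), Slco1a1 (-3.17), Elovl3 (-2.45), Cyp4a12a (-1.90) and Abcb1a (-1.56). Cyp7a1 and Fn3k in BDL livers of day 1, Mup21 in BDL livers of day 7 and Sprr1a, Mmp12 and Gpnmb in sham livers averaged under 5, the level not told apart from background, so these sizes are uncertain. The 4 arrays of day 1 that stood apart enter these differences, and their part was not tested.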

How the results depend on the processing

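With the 97 named genes, 3767 of 3782 fold changes recomputed under other settings kept their direction and side of the threshold. Many of these genes were named because their arrays did not overlap. Of the 3767, 2806 came from leaving out 1 array, which cannot undo a separation. This agreement therefore follows in part from the choice of genes. Only Alb reversed, to a log2 fold change of -0.041 with arrays centred on their median, and passed in neither setting. That centring also gave 3781 lower genes over all days, 134 lower genes without overlap, 269 within each day and 286 lower at all 4 days. Without the 4 day 1 arrays of low spread, 311 higher and 180 lower genes did not overlap, 684 and 307 within each day, 597 passed at day 1, and 170 and 113 passed at all 4 days. Without day 1 altogether, 669 and 266 genes did not overlap, and 1014 and 351 within each day; fewer arrays make separation easier by construction. At 2-fold or more, 86 and 44 genes did not overlap. Against the mean of the 3 sham day means, 3373 genes passed at day 1, 3742 at day 3 and 4627 at day 7, and 734 and 361 at all 4 days. Against the sham arrays of the same day, as reported, 1958 passed at day 1, 1493 at day 3 and 2819 at day 7. With the low-spread array set as a term, 783 genes changed their effect between days and 0 differed between sham days in the limma fit; without a filter 152 did. Of 1257 list medians recomputed, 1252 moved by less than the spread between replicates. The stricter filter moved list medians to 0.62 (basement membrane), -0.29 (pancreas) and -0.25 (erythroid) and left no lymphocyte gene; without day 1 the basement membrane list had 0.48 and the Kupffer list 1.04. The causes were not tested. With 1 array left out at a time, 168 to 422 genes were higher and 113 to 194 lower at all 4 days, 1268 to 2750 passed at day 1 and 668 to 1692 at day 3, 1 to 2301 differed between sham days, 266 to 482 changed their effect between days and 343 to 528 were higher without overlap within each day. Abcb11 lost its call with centred arrays (0.26), without the 4 arrays (0.22), with a term for the array set (0.30) and with 2 group means (0.33); Cyp3a11 lost it without the 4 arrays (0.30) and Cyp7a1 with 2 group means (-2.02), and Nr0b2 passed over days 1, 3 and 7 (0.72). No paired analysis was possible because replicate numbers are accession order and the titles give each mouse its own number. Leaving out arrays or day 1 for the lists was chosen after seeing the data.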

Other observations

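Of the 239 genes without overlap, 183 belong to no list used here. The groups below were picked after their values were seen, so they are given without a count or test. Genes of the actin cytoskeleton and of cell contacts were among the higher ones: Myh9 (1.14) and Myl12b (1.07), chains of non-muscle myosin, Ajuba (1.30) and Zyx (0.73), LIM proteins of adhesion sites, Cttn (0.69), cortactin, Ctnnd1 (0.48), p120 catenin, Afdn (0.42), afadin, and Mrtfa (0.59), an actin-regulated coactivator of serum response factor, each as a log2 fold change of BDL minus sham over all days. Cxadr (1.50), a junction receptor, and Ppl (1.87), periplakin of desmosomes, were higher too. Genes of hormone and cytokine signalling were Nrg1 (2.22), a ligand of ErbB receptors, and Clcf1 (1.02), a cytokine of the interleukin 6 family, on the higher side, and Ghr (-1.20), the growth hormone receptor, on the lower side.

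Mitochondrial and peroxisomal genes outside the lists were among the lower ones, mostly by small steps that still left no overlap: Abcd3 (-0.82), a peroxisomal fatty acid transporter, Sirt3 (-0.59), a mitochondrial deacetylase, Gcdh (-0.52) and Mccc2 (-0.46), enzymes of amino acid breakdown, Mpst (-0.68), which makes hydrogen sulfide, and Mrps5 (-0.32), a mitochondrial ribosomal protein. Mpst had the smallest range of BDL day means of the 239 genes, 0.05. Mt2, metallothionein, was higher by 1.57, and the sham array of day 7, replicate 4, lay 3.26 below the sham mean for it and 2.28 below for Lcn2.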
